A study of Mus musculus with 8 samples.

Results

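The mitochondrial protein import genes described here are those whose symbols on the array begin with Timm or Tomm followed by a digit. They comprised 22 genes with 37 probes, of 28482 gene names and 41174 non-control probes, and each gene was read through its brightest probe. RNA came from splenic CD8+ T cells of C57BL6 mice carrying the OT-I T cell receptor (TCR) transgene, which recognises the ovalbumin peptide SIINFEKL on H-2Kb, and magnetic purification gave 90 to 97% purity per the labels. All cells carried this transgene, and all had been cultured after isolation. Untreated cells were measured on 2 arrays. Interferon beta (IFNβ) was given alone, for 2 h or for 7 h. SIINFEKL streptamers stimulated the TCR during 1 h or 6 h, either without IFNβ or after 1 h of IFNβ. Each treated condition had 1 single-colour array, and 4 arrays shared each of 2 slides.

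Most mitochondrial proteins are encoded in the nucleus, made in the cytosol and carried across 1 or both mitochondrial membranes by translocases. The TOM complex (Tomm genes) is the entry gate of the outer membrane, small TIM chaperones escort hydrophobic precursors through the intermembrane space, and the TIM22 and TIM23 complexes insert proteins into or move them across the inner membrane. A naive T cell is small and quiescent, and mitochondrial growth accompanies its activation.

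Promoters of the members whose signals moved most are given here because 4 short motifs were looked for in them, namely the E-box CACGTG bound by MYC among others, the ETS motif CCGGAAG, the NRF1 core GCGCANGCG and the YY1 motif AAGATGGCG. Each window runs from 250 bases before a RefSeq transcript start to 50 after it (build GRCm38.p6), is read 5′ to 3′ on the gene's strand, and was searched on both strands. Windows were found for 20 of the 22 genes, and none was used for Tomm7 and Tomm40l. The 3 genes with the largest rise at 6 h of TCR stimulation, Timm8a1 (chrX:134541621-134541920, minus strand), Timm10 (chr2:84826771-84827070, plus strand) and Timm9 (chr12:71136626-71136925, minus strand), each held the E-box, shown in capitals.
Timm8a1: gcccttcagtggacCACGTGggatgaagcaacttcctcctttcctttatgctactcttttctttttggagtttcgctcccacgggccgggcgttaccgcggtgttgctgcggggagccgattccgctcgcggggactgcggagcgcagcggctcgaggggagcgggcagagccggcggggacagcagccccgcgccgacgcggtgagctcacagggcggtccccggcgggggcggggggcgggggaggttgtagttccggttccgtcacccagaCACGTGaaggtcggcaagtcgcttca
Timm10: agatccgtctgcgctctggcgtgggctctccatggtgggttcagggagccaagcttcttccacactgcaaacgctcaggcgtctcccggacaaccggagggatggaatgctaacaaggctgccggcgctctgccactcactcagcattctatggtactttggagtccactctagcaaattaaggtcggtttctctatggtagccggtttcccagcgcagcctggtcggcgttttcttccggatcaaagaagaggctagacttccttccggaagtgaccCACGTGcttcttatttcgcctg
Timm9: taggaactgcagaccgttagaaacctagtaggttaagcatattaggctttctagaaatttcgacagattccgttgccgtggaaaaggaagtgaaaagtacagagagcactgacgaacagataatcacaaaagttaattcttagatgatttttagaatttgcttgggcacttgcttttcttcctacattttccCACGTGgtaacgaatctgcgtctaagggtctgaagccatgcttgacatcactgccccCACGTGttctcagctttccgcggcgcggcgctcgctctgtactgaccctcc
Timm8a1 and Timm9 each held 2 copies and Timm10 held 1. In Timm10 it began at base 29 of the transcript, counted from 1 at the start site. Tomm40, whose rise was the next largest (log2 3.43), held none of the 4 motifs in its window, which is not printed. The rank of Timm9 rests on its brightest probe. With the mean of all kept probes its log2 change was 2.58, below that of Tomm40. Whether the E-box goes with the size of the rise was not tested. The windows of Timm50 (chr7:28311997-28312296, minus strand), with the YY1 motif in capitals, and of Timm8a2 (chr14:122034424-122034723, plus strand), the 1 member that fell, with 2 ETS matches in capitals on the opposite strand, are shown for contrast.
Timm50: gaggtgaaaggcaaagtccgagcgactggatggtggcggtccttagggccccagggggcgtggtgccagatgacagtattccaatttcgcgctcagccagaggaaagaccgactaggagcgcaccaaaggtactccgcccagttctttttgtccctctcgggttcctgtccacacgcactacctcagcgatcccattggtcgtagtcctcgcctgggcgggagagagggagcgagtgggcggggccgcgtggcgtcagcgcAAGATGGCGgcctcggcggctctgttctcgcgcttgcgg
Timm8a2: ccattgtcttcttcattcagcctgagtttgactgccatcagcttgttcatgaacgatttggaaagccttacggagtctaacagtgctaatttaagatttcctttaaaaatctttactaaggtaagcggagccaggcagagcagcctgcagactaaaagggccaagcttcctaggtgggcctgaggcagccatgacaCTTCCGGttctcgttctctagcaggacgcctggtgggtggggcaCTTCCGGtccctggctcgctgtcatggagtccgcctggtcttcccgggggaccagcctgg
The E-box was present in 5 of 20 members (25%; also Tomm20 and Tomm20l), and in 7.15% of all 32851 windows or 9.26% of windows with at least 50% GC. The ETS motif was present in 7 of 20 (35%), against 8.86% of all windows and 13.2% of GC-rich ones. Its members were Timm10, Timm23, Timm8a2, Timm8b, Tomm22, Tomm34 and Tomm70a, and 2 of the Timm10 matches overlapped each other. The NRF1 core was present in Timm13, Timm8b and Tomm20 (15%, against 6.25% of all windows and 9.94% of GC-rich ones) and the YY1 motif in Timm50 alone (5%, against 1.4% and 2.11%). Members were counted as genes with a match in any of their windows (22 windows for 20 genes), whereas the shares over all are of single windows. Median GC content was 58.3% over the members' windows and 52.7% over all. A match describes the letters of a window and is not evidence of binding. The windows printed and the GC-rich comparison were chosen after the expression values had been seen.

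Signals below are linear processed intensities scaled so that the 75th percentile of each array equals 1500. They therefore show a gene's level relative to the rest of its array, not RNA per cell. In bulk samples, fewer cells of a type and less RNA per cell cannot be told apart. Before scaling, that percentile lay between 807 and 1240 intensity units, and 26065 to 29533 of 43379 non-control spots per array were well above background. No treated condition had a replicate array and no label ties the arrays to separate mice, so p-values measure only the spread between these samples. The untreated arrays were counted as 1 sample. Over the 21 measured members their log2 difference ran from -0.11 to 0.08 (SD 0.058), against an SD of 0.36 over all genes. Both arrays with 1 h of TCR stimulation, alone or after IFNβ, carry exchanged identities in the scanner files and in the deposited value table. The value table's naming was used, and values with the other naming or without these arrays stand beside the results at 1 h and for IFNβ. All 7 CD8 T cell markers were measured, with summed signals of 566000 untreated, 750000 to 862000 with IFNβ alone, 594000 to 725000 at TCR 1 h and 286000 to 334000 at TCR 6 h. Summed B cell markers were 13000 to 13300 untreated and 4510 to 5290 at TCR 6 h, with Pax5 not above background. The part of other cells in the results was not tested.

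Import genes rose broadly by 6 h of TCR stimulation. In a limma model across 19917 genes, with terms for each TCR time and for IFNβ and 7 samples, 19 of the 21 measured members were higher (2 arrays with TCR 6 h against 3 samples without TCR) and 1 was lower at an adjusted p under 0.05. Over all genes 22.2% were called higher and 22.6% lower. The members' median log2 change was 2.15 and that of all genes 0.05. The only member not called was Tomm34, whose product is a cytosolic cochaperone that assists precursors on their way to the outer membrane (log2 0.24 ± 0.25 SE, adjusted p = 0.48). On slide 2 the array with TCR 6 h alone was set against untreated, and the array with prior IFNβ against IFNβ 7 h. The counts were alike, with 17 and 16 members at least 2-fold higher, against 20.5% and 20.7% of all genes.

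**Figure D1:**
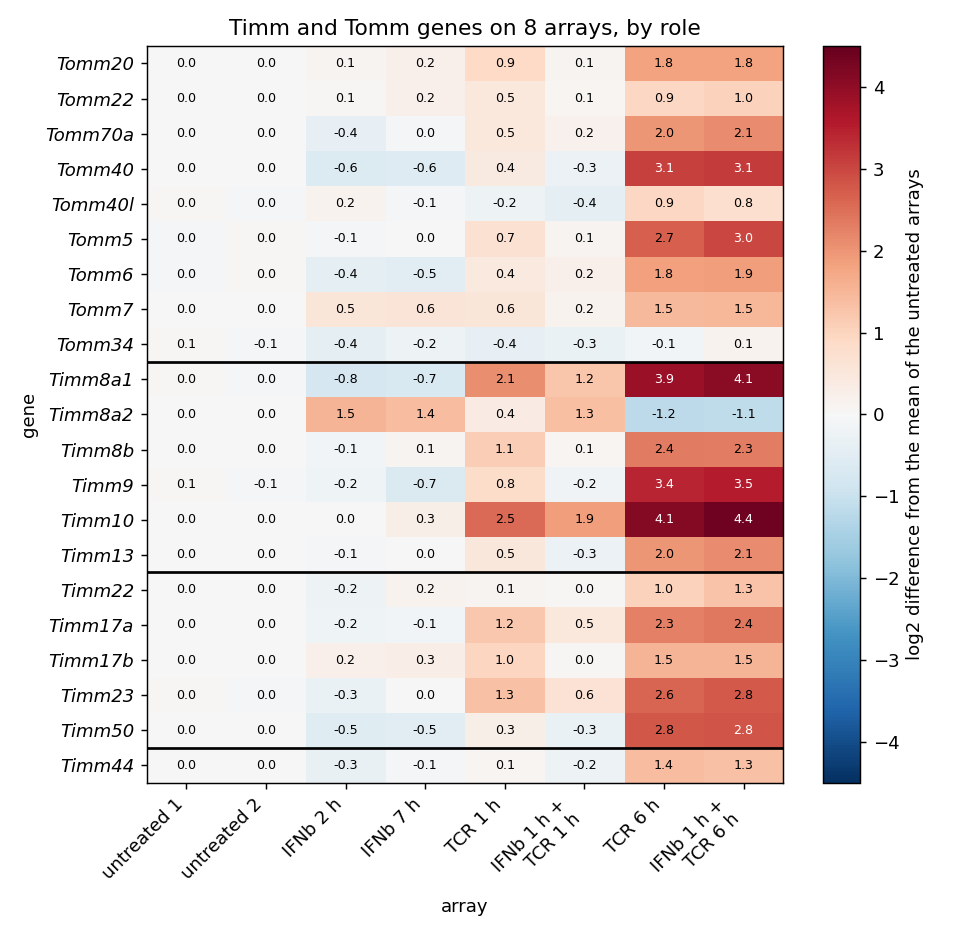
Each cell gives the log2 difference of 1 gene's signal on 1 array (columns) from the mean of the untreated arrays. Rows are the 21 measured genes, with black lines between outer membrane (with the cytosolic Tomm34), intermembrane space, inner membrane and motor genes. Both arrays at TCR 6 h are above the untreated mean for 19 of 21 genes, all but Timm8a2 and Tomm34.

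The small TIM chaperones of the intermembrane space held the members that moved furthest, in both directions, with 5 of 6 higher at 6 h and 1 lower. Timm8a1, which forms a chaperone complex with Timm13, stood at 4710 and 4430 in untreated cells, 2710 and 2840 after IFNβ for 2 h and 7 h, 19400 at TCR 1 h, 10800 at IFNβ with TCR 1 h, 66800 at TCR 6 h and 75900 at IFNβ with TCR 6 h. Both arrays at each TCR time lay above all 4 arrays without TCR. It rose 20.6-fold at 6 h (log2 4.36 ± 0.30, adjusted p = 0.00041), the largest estimate among the members. Timm10, partner of Timm9 in the main carrier chaperone, stood at 6320 and 6340 untreated, 6250 and 7620 with IFNβ alone, 36600 and 23100 at TCR 1 h without and with IFNβ, and 110000 and 133000 at TCR 6 h. Its groups by TCR time did not overlap either, and it rose 17.9-fold at 6 h (log2 4.16 ± 0.30, adjusted p = 0.00043). The brightest Timm9 probe read 4550 and 4210 untreated, 3810 and 2760 with IFNβ alone, 7680 and 3880 at TCR 1 h without and with IFNβ, and 47200 and 50700 at TCR 6 h. Of the 1 h pair, the array at 3880 was thus below both untreated arrays. That array had IFNβ with the naming used, and had none with the scanner files' naming. At 6 h Timm9 had risen 13-fold (log2 3.70 ± 0.32, adjusted p = 0.00054). Timm13 and Timm8b rose 4.16-fold and 4.87-fold (adjusted p = 0.0021 and 0.002). Timm10b, another small TIM that appears on the array under an older name and so lies outside the 22 genes, rose 2.67-fold (adjusted p = 0.0051).

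Timm8a2, the close paralogue of Timm8a1, went the other way. Its signal was 72.2 and 69.3 untreated, 202 and 187 after IFNβ for 2 h and 7 h, 90.8 and 180 at TCR 1 h without and with IFNβ, and 30.9 and 32.1 at TCR 6 h. Both arrays at 6 h were below all others, and the 3 highest arrays were IFNβ arrays. The array at 180 belongs to the pair with disputed naming. With the scanner files' naming it is the array with TCR 1 h alone. The fitted IFNβ estimate of Timm8a2 was then 0.31, against 0.90 with the naming used. In the fit Timm8a2 fell to 0.252 of the level without TCR (log2 -1.99 ± 0.35, adjusted p = 0.0053). That level takes in the arrays with IFNβ alone. On slide 2 the log2 difference at TCR 6 h was -1.16 against untreated, and -2.54 with IFNβ against IFNβ 7 h. Its signal was low, though well above background on all 8 arrays. With another background correction and quantile normalization the estimate was -0.68 and stayed called. The call was lost without the array for IFNβ with TCR 6 h (log2 -1.33, adjusted p = 0.055). Summed B cell markers (5 of 6 genes, without Pax5) were 13000 to 13300 untreated, 35300 to 41000 with IFNβ alone, 10200 to 11400 at TCR 1 h and 4510 to 5290 at TCR 6 h, on the same side of untreated as Timm8a2 except at TCR 1 h. Summed over all 5 listed genes, NK cell markers were 1090 to 1120 untreated and 5510 to 16400 with IFNβ alone. They were 1030 to 8690 at TCR 1 h and 997 to 1100 at TCR 6 h. Class II presenting and dendritic cell markers were 23100 to 23500 untreated, 31100 to 52200 with IFNβ alone and 10500 to 13500 at TCR 6 h. The CD8 T cell markers given above also rose with IFNβ alone and fell at TCR 6 h. Myeloid markers lay on both sides of untreated with IFNβ alone. CD4 T cell and erythroid markers were above untreated at TCR 6 h. The part of any cell type in the Timm8a2 values was not tested.

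**Figure D2:**
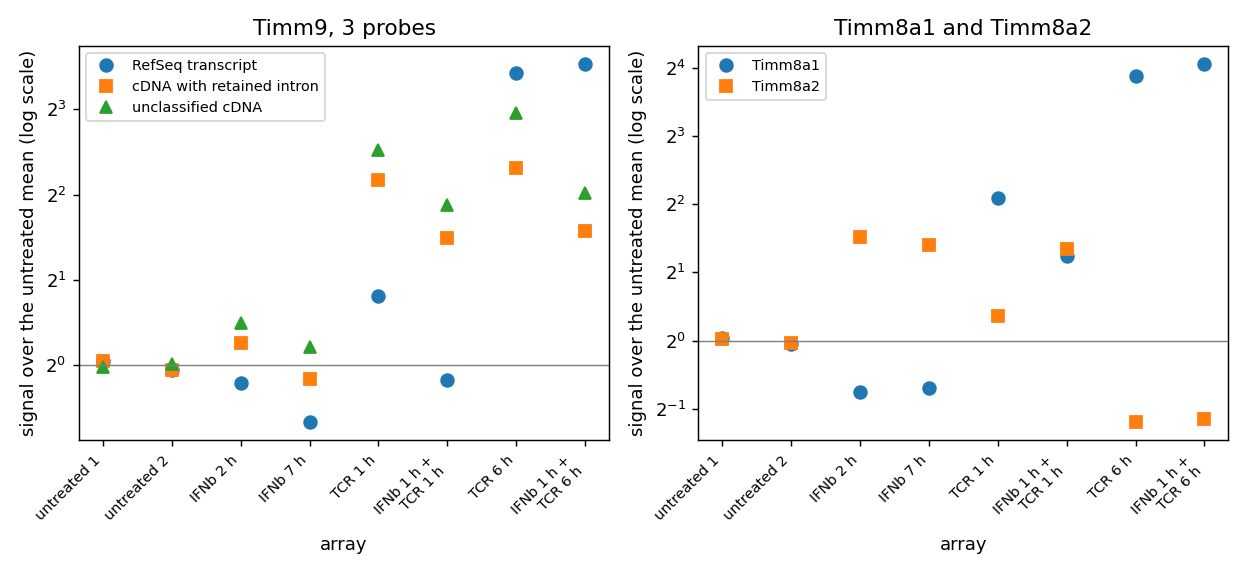
Points give signal over the untreated mean on a log scale for each of 8 arrays, for 3 Timm9 probes (left) and for Timm8a1 and Timm8a2 (right). At TCR 6 h the Timm8a1 arrays read 66800 and 75900 and the Timm8a2 arrays 30.9 and 32.1; the Timm9 probe annotated to the RefSeq transcript is the highest of the 3 at 6 h and the lowest at 1 h.

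The outer membrane group, in which the cytosolic Tomm34 was also counted, rose in 8 of 9 measured members, all but Tomm34. Its median log2 change was 1.68. Tomm40, the pore of the complex, read 1320 and 1270 untreated, 847 and 861 with IFNβ alone, 1700 and 1080 at TCR 1 h without and with IFNβ, and 10800 and 11400 at TCR 6 h. The 6 h arrays were clear of the rest, and the rise was 10.8-fold (log2 3.43 ± 0.26, adjusted p = 0.00046). Its paralogue Tomm40l read 1170 and 1110 untreated, 1280 and 1060 with IFNβ alone, 965 and 866 at TCR 1 h, and 2170 and 1930 at TCR 6 h, a 1.76-fold rise (adjusted p = 0.03). That call was lost when the IFNβ 2 h, IFNβ 7 h or either TCR 6 h array was left out.

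The receptors differed in how far they moved. Tomm20, which binds presequences, read 58800 and 59100 untreated, 64800 and 68900 with IFNβ alone, 109000 and 64100 at TCR 1 h without and with IFNβ, and 208000 and 209000 at TCR 6 h. It rose 3.19-fold (log2 1.68 ± 0.29, adjusted p = 0.0048). Its paralogue Tomm20l was well above background on the TCR 6 h array alone, at 27.1, and between 5.33 and 15.7 on the others, so it was not tested. Tomm70a, the receptor for carrier precursors, rose 4.49-fold (adjusted p = 0.0011) and Tomm22, the central receptor, 1.82-fold (adjusted p = 0.031). The small subunits Tomm5, Tomm6 and Tomm7, which stabilise or remodel the complex, rose 7.28-fold, 4.43-fold and 2.16-fold. Tomm7 and Tomm22 lost their calls with quantile normalization and on slide 2 alone.

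All 5 inner membrane translocase genes and the motor gene Timm44 rose. Timm50, the receptor that hands presequences to the channel, rose 8.52-fold (log2 3.09 ± 0.25, adjusted p = 0.00048), Timm23, the channel subunit, 6.76-fold (log2 2.76 ± 0.27, adjusted p = 0.00074), and Timm44, which tethers the motor chaperone to the channel, 2.72-fold (adjusted p = 0.0036). Timm22, which inserts carrier proteins, rose 2.28-fold (adjusted p = 0.01). Timm17a, a core subunit of the TIM23 complex, read 9850 and 10100 untreated, 8630 and 9080 with IFNβ alone, 23100 and 13700 at TCR 1 h without and with IFNβ, and 47900 and 52200 at TCR 6 h. Its alternative Timm17b read 9380 and 9520 untreated, 11100 and 11600 with IFNβ alone, 18300 and 9780 at TCR 1 h, and 27500 and 27200 at TCR 6 h. Both rose at 6 h, Timm17a 5.27-fold (log2 2.40 ± 0.27, adjusted p = 0.0011) and Timm17b 2.51-fold (log2 1.33 ± 0.32, adjusted p = 0.017). The Timm17b call was lost with quantile normalization and without either TCR 6 h array, and that of Timm22 on slide 2 alone. The difference between the paralogues was not tested. Timm21, a TIM23 subunit outside the naming rule, had a log2 estimate of 0.74 ± 0.26 and was not called (adjusted p = 0.058).

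**Figure D3:**
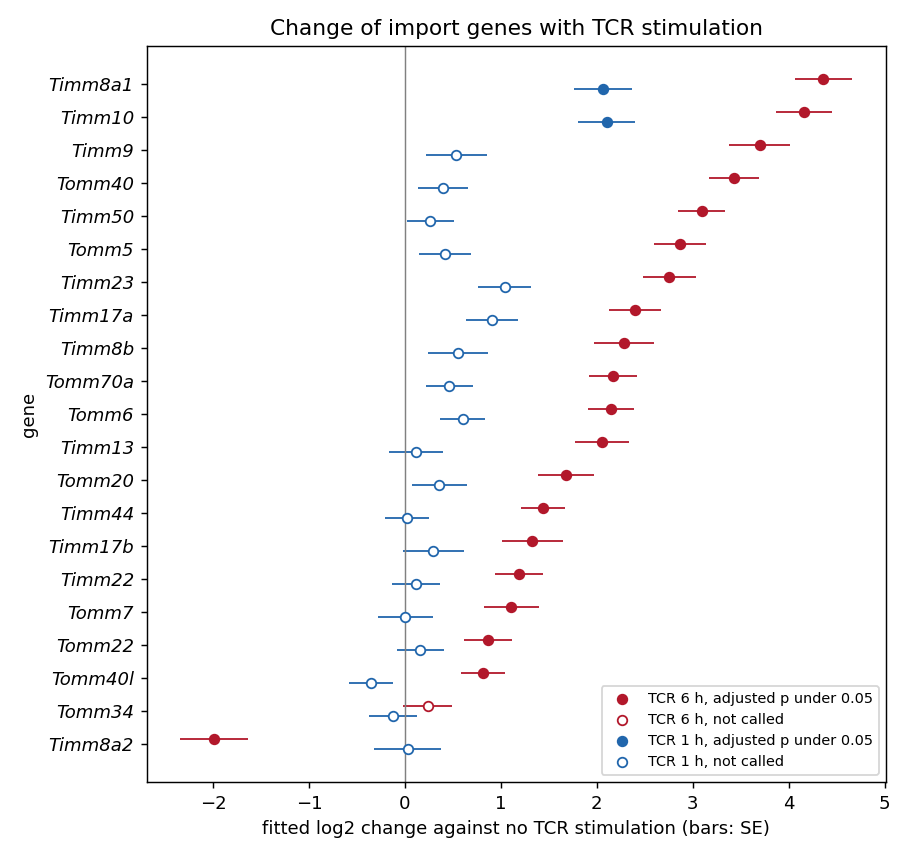
Points give the fitted log2 change against no TCR stimulation for each of 21 genes, with bars of 1 SE; red is TCR 6 h, blue is TCR 1 h, and filled points were called. At 6 h 20 genes were called, from Timm8a1 at 4.36 to Timm8a2 at -1.99, and at 1 h only Timm10 and Timm8a1.

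At 1 h of stimulation few import genes passed the threshold. Timm10 rose 4.3-fold (log2 2.10 ± 0.30, adjusted p = 0.024) and Timm8a1 4.17-fold (log2 2.06 ± 0.30, adjusted p = 0.026), 2 of 21 members called higher and 0 lower, beside 2.48% and 1.68% of all genes. The members' median was 0.36, and 19 of 21 estimates were above 0 (9181 of 19916 over all genes). In either direction, 5 of 21 members had an unadjusted p under 0.05, beside 4658 of 19916 genes, a like share. Timm23 and Timm17a stood at 1.04 and 0.90 and were not called (adjusted p = 0.091 and 0.12). On slide 1, 5 members were at least 2-fold higher at TCR 1 h than untreated (10.2% of all genes), and 2 at IFNβ with TCR 1 h than at IFNβ 2 h (11.2%). With the pair exchanged these counts were 3 (11.2%) and 7 (14.5%). Both calls were lost when either array with IFNβ alone, or either array of the 1 h pair, was left out. With the scanner files' naming Timm10 kept its call (log2 2.17, adjusted p = 0.032) and Timm8a1 did not (log2 2.15, adjusted p = 0.064).

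The times were then compared directly, in the same model and with the same untreated and IFNβ arrays behind both terms. Between 1 h and 6 h, 17 members rose and Timm8a2 fell (log2 -2.02 ± 0.38, adjusted p = 0.011), against 16.3% and 15.4% of all genes. The largest differences were in Timm9 (log2 3.16), Tomm40 (3.03) and Timm50 (2.83), with 1 h estimates of 0.53, 0.40 and 0.27 that were not called. Timm17b, Tomm22 and Tomm34 were not called. With the scanner files' naming 17 members were higher and the call of Timm8a2 was lost (adjusted p = 0.059). Both arrays of a TCR time lay on 1 slide, and with slide as a block 10 members were called, all higher. Without the array for IFNβ with TCR 6 h the count was 7, and without that for IFNβ with TCR 1 h it was 9.

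The 3 Timm9 probes did not move together, and were examined after their values had been seen. They are annotated to a RefSeq transcript (chr12:72226471-72226530 in mm9), to an unclassified cDNA (chr12:72231471-72231530) and to a cDNA described with a retained intron (chr12:72236700-72236759), and the first 30 bases of each are given in that order.
Timm9 RefSeq transcript probe: gggaacctacaataaacttacagaaacctg
Timm9 unclassified cDNA probe: tctctcataggttcctcctatagcaataat
Timm9 retained-intron cDNA probe: cttccttgaggctagactttgaatcgggaa
The retained-intron probe read 1320 and 1220 untreated, 1520 and 1140 with IFNβ alone, 5710 and 3580 at TCR 1 h without and with IFNβ, and 6320 and 3780 at TCR 6 h. Its change was therefore present at 1 h (log2 1.73, adjusted p = 0.035) and at 6 h (log2 1.84, adjusted p = 0.0036), with a difference between the times of 0.11 ± 0.33 that was not called (adjusted p = 0.82), while the RefSeq transcript probe stood at 0.53 at 1 h (adjusted p = 0.37) and 3.70 at 6 h. The unclassified cDNA probe followed the retained-intron probe, at 1.91 and 2.19. With the scanner files' naming the 1 h calls of these 2 probes were lost (log2 1.80 and 1.97, adjusted p = 0.077 for both). No probe's position relative to exons was used here. The differences between probes were not tested. For other members with several probes the 6 h estimates agreed in sign, from 2.05 to 2.06 for Timm13 to 1.36 to 2.32 for the 4 Tomm70a probes. With each probe fitted singly, 32 of 35 member probes were higher at 6 h and 1 lower. Of all probes 23% were called higher, and 13147 of 28706 were called in either direction. The 35 probes read the same 21 genes, so their count adds no further members.

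IFNβ moved no import gene past the threshold. In limma 0 of 21 members were called in either direction, beside 0.0502% of all genes called higher and 0% lower. At an unadjusted p under 0.05 there was 1 member, beside 1706 of 19919 genes. The members' median log2 estimate was -0.17. The 2 furthest from 0 were the paralogues Timm8a2 (0.90 ± 0.30, adjusted p = 0.49) and Timm8a1 (-0.49 ± 0.25, adjusted p = 0.66). With the scanner files' naming their estimates were 0.31 and 0.02. The members' median was 0.18 with the scanner files' naming of the TCR 1 h arrays, -0.03 without them and 0.07 on slide 2 alone, so its direction was not settled. TCR 1 h, TCR 6 h and IFNβ estimates share the untreated arrays.

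Each slide held a full square of arrays, with and without IFNβ and with and without TCR, so that IFNβ could be read within pairs of single arrays. Without TCR, 15 of 21 members were lower after 2 h of IFNβ than untreated (44.3% of all genes were lower) and 11 of 21 after 7 h (43.2%). Timm8a1, Tomm40 and Timm50 were lower in both, by a log2 of -0.80 and -0.64, -0.64 and -0.56, and -0.54 and -0.50. Timm8a2 was higher in both, by 1.49 and 1.43, and Tomm7 by 0.56 and 0.57. At TCR 1 h, 19 of 21 members were lower on the array with prior IFNβ, beside 56.9% of all genes, with a median of -0.59 and a range from -1.004 for Timm8b to 0.98 for Timm8a2. At TCR 6 h 4 of 21 were lower (49.6% of all genes), with a median of 0.10 and a range of -0.17 to 0.29. The members thus lay within a narrow band at 6 h (SD 0.12, against 0.45 at 1 h), and the SD over all genes was also smaller at 6 h (0.54, against 0.93).

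**Figure D4:**
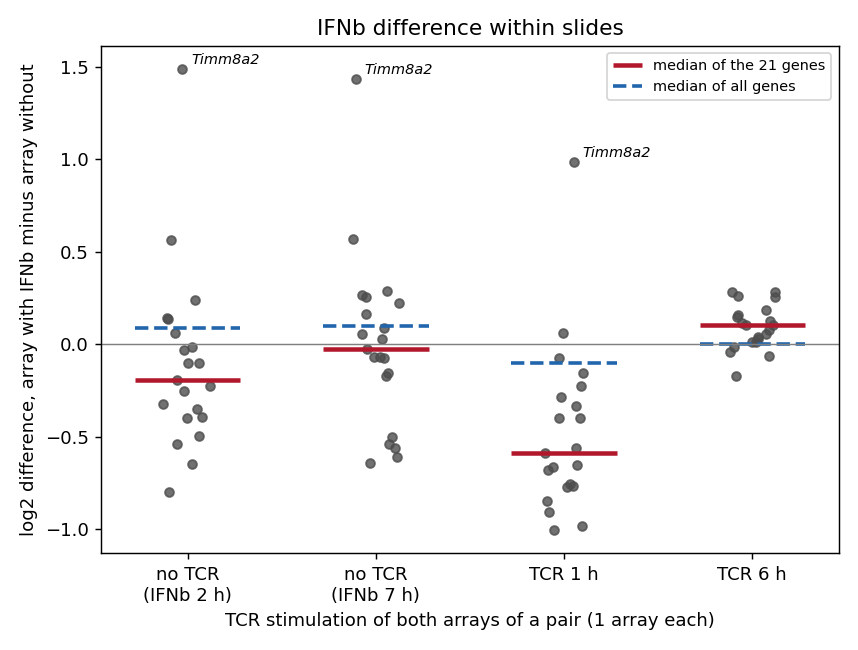
Points give the log2 difference between an array with IFNβ and its partner without, on the same slide, for 21 genes in 4 pairs of single arrays. Red lines are the medians of the 21 genes (-0.19, -0.03, -0.59 and 0.10 from left to right) and dashed lines the medians of all genes; the third pair is the one whose naming differs between the deposited sources.

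The TCR 1 h pair is the one with disputed naming, and under the scanner files' naming the same values read as 19 of 21 members higher. The counts of any size were added after the values had been seen. The difference between the IFNβ effects at TCR 6 h and 1 h was tested in a model with interaction terms, also added later and with 1 residual degree of freedom. It called 0 of 19766 genes (1596 at an unadjusted p under 0.05) and 0 members. It was above 0 for 19 of 21 members and 56.4% of all genes, with medians of 0.73 and 0.11, and the lowest adjusted p among members was 0.77. With the scanner files' naming it was above 0 for 3 of 21 members and 43.6% of all genes, with a member median of -0.40.

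Other genes of the import route moved with the members at 6 h. Of 31 measured genes for sorting, folding, processing and quality control of imported proteins, 24 rose and 1 fell, with a median log2 change of 1.42. Largest were Chchd4, the oxidoreductase that traps small TIM proteins in the intermembrane space (18.8-fold, adjusted p = 0.00038), Hspa9, the motor chaperone (13.5-fold, adjusted p = 0.00051), Hspd1, the matrix chaperonin (10.6-fold, adjusted p = 0.00064), and Lonp1, a matrix protease (7.67-fold, adjusted p = 0.00052). Samm50, which inserts outer membrane proteins, rose 2.54-fold (adjusted p = 0.0058). Immp2l, an inner membrane peptidase subunit, fell to 0.396 of its level (adjusted p = 0.0045). By comparison 62 of 78 mitochondrial ribosomal protein genes rose and 0 fell (median 1.40), and 59 of 93 genes named as respiratory chain subunits or assembly factors rose and 2 fell (median 0.94). The shares of all genes at 6 h were 22.2% higher and 22.6% lower.

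Among 14 regulators of mitochondrial gene expression 9 rose at 6 h and 0 fell, beside 22.2% and 22.6% of all genes. The median log2 change of the 14 was 0.84. Myc, which binds E-boxes, was already 27.4-fold higher at 1 h (log2 4.78 ± 0.59, adjusted p = 0.018) and 26.6-fold at 6 h (adjusted p = 0.0015). Its signal was 2230 and 2350 untreated, and 10300 and 7530 after IFNβ alone for 2 h and 7 h. At TCR 1 h it was 181000 without and 114000 with IFNβ, so the fitted fold averages unlike pairs. Whether Myc acts on the import genes was not tested. Pprc1, a coactivator of the PGC-1 family, rose 4.24-fold at 1 h and 13.5-fold at 6 h (adjusted p = 0.019 and 0.00043). Gabpb1, a subunit of the ETS-family factor GABP, rose 4.2-fold and 6.06-fold (adjusted p = 0.036 and 0.0021). These were the 3 of 14 regulators called at 1 h, beside 2.48% of all genes called higher. With the scanner files' naming Myc kept its 1 h call (adjusted p = 0.029), and Pprc1 and Gabpb1 did not (adjusted p = 0.069 and 0.14). Tfb2m, a mitochondrial transcription factor, rose 2.72-fold at 6 h (adjusted p = 0.011). Ppargc1a, the coactivator best known from oxidative tissues, was not called (log2 0.32 ± 0.61, adjusted p = 0.71). Its signal was low, at 56 and 60.9 untreated and between 38.5 and 167 on the treated arrays, though well above background on all 8.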

How the data were processed

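Splenic CD8+ T cell RNA was measured on 8 arrays. The scanner files deposited by the authors hold processed signal as linear intensity, background-subtracted and detrended with Agilent Feature Extraction 10.7.3.1 per the file headers (9.5.3.1 per the submitters' processing notes). Coordinates are in mm9 per the file headers. The deposited value table, also intensity, was used to name the 2 TCR 1 h arrays and as an alternative.

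Of 45018 spots, 1639 controls and those marked as outliers were removed, and a probe's repeats were averaged. Signals were set to log2, minus each array's 75th percentile. Probes well above background on at least 2 arrays were kept (28708), and the brightest probe of a gene was used (19919 genes). 22 of 22 members matched a RefSeq gene by accession. The additive limma 3.58.1 model (R 4.3.3, package data.table, version 1.17.8) had 7 samples and 3 residual degrees of freedom, with p-values adjusted by Benjamini-Hochberg over all genes at 0.05. It was tested on simulated data. The number of arrays limits the precision. Figures used matplotlib 3.10.9 in Python 3.11.15.

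Every member was named. Values by array were given for the 4 largest 6 h changes in each direction where so many passed, for members called for IFNβ or TCR 1 h, and for paralogue pairs. From the lists of other import genes and of regulators, the 4 largest 6 h changes and Hspd1, Hspa9, Samm50, Myc, Pprc1 and Ppargc1a were named. Gabpb1 at 1 h, Immp2l, Timm10b, Timm21 and the Timm9 probes were named after their values were seen. The signals of Myc by array and the signals of Ppargc1a were also added then. Members and lists were chosen with earlier results of these data known. Alternatives covered scaling, background, probe filter, probe choice, slide, array naming and leaving out each array.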

Additional observations from a re-analysis of the deposited data

Results flagged for a closer look

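Tomm20l, whose probe (chr12:72222856-72222915 in mm9) was left out of the tests as too dim, had a scaled signal of 27.1 on the TCR 6 h array, where it was well above background. The untreated arrays read 6.79 and 11.2, and the array for IFNβ with TCR 6 h, which should share a TCR response, read 8.28. The signal thus rests on 1 array.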

How the results depend on the processing

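Under 18 to 21 settings per comparison, no called member changed sign. At 6 h, 395 of 420 member estimates kept their side of the threshold and 25 lost it. The 20 calls became 17 with quantile normalization, 16 on slide 2 alone, and 12 to 20 when 1 array was left out; the lowest count, without IFNβ 1 h with TCR 6 h, lost Timm17b, Timm22, Timm44, Timm8a2, Tomm20, Tomm22, Tomm40l and Tomm7. The median of 2.15 was 1.43 with quantile normalization and 2.47 with median scaling.

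At 1 h the 2 calls became 4 with the untreated arrays as separate samples, 1 with the scanner files' naming, and 0 to 2 when 1 array was left out. For the difference between times, the 18 calls became 10 with slide as a block and 7 to 18 when 1 array was left out. For IFNβ the count was 0 in every setting run, and 52 of 441 member estimates, all uncalled, changed sign. At 1 h 18 of 399 did so, also uncalled. No paired analysis was possible because the labels number the untreated arrays alone, and slide was fitted as a block instead.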
